A study of Sus scrofa with 63 samples.

Results

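The comparison described here sets 7 purebred Meishan fetuses (MSMS: Meishan sire, Meishan sow) against 6 crossbred fetuses (MSLW: Meishan sire, Large White sow), all at day 110 of gestation. They are 13 of the 63 fetuses in the series and were taken by their titles alone, so that no measured value entered the choice. In the 4-letter code the sire breed is written first and the sow breed last. Both groups have a Meishan (MS) sire and differ in the breed of the sow, which also makes one group purebred and the other crossbred. MS is a Chinese breed known for mature piglets with high survival, and Large White (LW) is a breed selected for lean growth. The series holds male fetuses of both purebreds and both reciprocal crosses at day 90 and day 110. RNA from the middle jejunum of each fetus was labelled with Cy3 and hybridised to a 1-colour Agilent pig array, 1 array for each fetus. The authors inseminated each sow with mixed semen of both breeds, so that a litter held purebred and crossbred fetuses. The labels do not tie a fetus to its sow, so litter mates could not be told from unrelated fetuses and the p-values may be too small.

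A male fetus receives its single X chromosome and its mitochondrial genome from the sow alone, and 1 copy of each autosome from either parent. The sow also provides the uterus and placental supply in which the jejunum matures, so fetal genotype and uterine environment cannot be told apart in this contrast. Late gestation is when the fetal jejunum acquires the brush border, lipid uptake and resident immune cells needed at birth.

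Signals are log2 values from which each array's 75th percentile was subtracted. Every difference is MSMS minus MSLW on that scale unless another contrast is named, fitted with limma on all 63 arrays and adjusted by Benjamini-Hochberg over 40515 tested probes. "Called" means an adjusted p under 0.05. Between 59.7% and 71.1% of probes were well above background on the MSMS arrays, and between 56.5% and 80.4% on the MSLW arrays. MSMS fetus 632 stood apart from the other 12 fetuses: its mean correlation with its own group was 0.904, against 0.949 to 0.964 for the other MSMS fetuses. Its mean level over a brush-border gene list was -1.43, against 1.04 to 3.18 in the other MSMS fetuses and 1.80 to 2.84 in the MSLW fetuses. Several of the results that fetus 632 affects are therefore also given without it. MSMS fetuses 623 and 627 were next lowest for the brush-border list, at 1.04 and 1.41, below all MSLW fetuses. Their mean stomach-marker levels were 1.62 and 0.92, against 0.20 in MSLW fetus 560, 0.44 in 578 and -3.15 to -0.91 in the others. Of the fits that left out 1 fetus, the one without 623 called the fewest probes, 458. The fetuses with high stomach-marker levels were not left out together. In bulk tissue, fewer cells of a type and less RNA per cell cannot be told apart.

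Between the sow breeds 771 probes were called (1.9% of those tested). Of these, 326 (0.805%) were higher and 445 (1.1%) lower in MSMS fetuses, a split that moved to 370 higher of 569 when arrays were centred on their median and to 405 higher of 753 after quantile normalization. Groups did not overlap for 345 probes (0.852%). The 513 called probes with a gene symbol stood for 374 genes, and 258 called probes had none. Of the 260 called genes with 2 or more tested probes, 29 had every probe called and 181 had a single called probe, so a called probe often stood beside uncalled probes of the same gene. The 5 slides that held both groups gave within-slide values, and a fit with slide as a block called 801 probes.

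Signals of a macrophage scavenger receptor, an ephrin ligand and a lipocalin, and of 1 of 2 probes to spermine synthase, were higher in MSMS fetuses. CD163, the haemoglobin scavenger receptor of tissue macrophages, was -0.99, -0.55 and -0.08 (lowest, median, highest) in MSMS and -2.99, -2.28 and -1.80 in MSLW. The lowest MSMS fetus lay above the highest MSLW fetus. The difference was 1.73 ± 0.29 (SE, limma adjusted p = 8.13e-05), it lay between 1.33 and 2.43 within slides, and the 6 CD163 probes gave 1.59 to 1.89 with 4 called. VSIG4, a complement receptor of tissue macrophages encoded on the X chromosome, was higher by 1.01 (limma adjusted p = 0.00262). Among 19 tested genes of a macrophage and chemokine list, these were the 2 called; 14 had a positive difference and the list median was 0.44, beside a median of 0.03 over all tested probes. CCL2, the chemokine that attracts monocytes, differed by -0.13 (limma adjusted p = 0.897).

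EFNB3, a membrane-bound ephrin ligand, was -0.59, -0.53 and 0.24 in MSMS and -2.88, -2.11 and -1.30 in MSLW, a difference of 1.71 ± 0.29 with no overlap (limma adjusted p = 9.35e-05). The other EFNB3 probes were not called, and the lowest of the 3 lay at -0.58. BDH1, the mitochondrial enzyme that interconverts the ketone bodies, was 1.18, 1.49 and 3.57 in MSMS and 0.06, 0.79 and 1.16 in MSLW. The groups touched but did not overlap, and BDH1 was higher by 1.24 ± 0.23 (limma adjusted p = 0.000594). APOD, a lipocalin that binds small lipids, was higher by 1.48 ± 0.29 (limma adjusted p = 0.00125), with 6 of 6 probes higher and 4 called. LECT1, which encodes chondromodulin, was higher by 1.78 ± 0.41 (limma adjusted p = 0.00785), and its probe was well above background on 7 MSMS and 3 MSLW arrays. MSLW values of these genes lay lower as a group, but those of APOD and LECT1 overlapped with MSMS. In a fit on the 13 fetuses alone BDH1, APOD and LECT1 were not called (limma adjusted p = 0.256, 0.104 and 0.0692), and LECT1 was also not called after normexp background correction (0.88, adjusted p = 0.0518).

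DMBT1, a secreted scavenger protein of the gut epithelium, was 0.60, 1.57 and 3.58 in MSMS and -0.87, -0.06 and 1.13 in MSLW. Its 3 highest values were in MSMS fetuses 623, 632 and 627 (3.58, 3.52 and 2.52), and the groups overlapped. The difference of 1.95 ± 0.53 (limma adjusted p = 0.0335) was shared by 4 of 4 called probes, from 1.56 to 1.95. The call was lost on leaving out fetus 623 (adjusted p = 0.121), 627 (0.0738) or 632 (0.0956), and also without MSLW fetus 851 (0.055), 476 (0.0762), 578 (0.0909) or 481 (0.0672). The mean level of 6 tested stomach markers was 1.62 in MSMS fetus 623, 0.92 in 627 and -3.15 in 632, 0.44 in MSLW fetus 578 and 0.20 in 560, and -3.04 to -0.91 in the other 8, and their part in DMBT1 was not tested. MASP1, a protease of the lectin complement pathway, was higher by 1.64 ± 0.41 (limma adjusted p = 0.0165) with overlapping groups and 2 of 4 probes called, and was not called without MSLW fetus 560 (adjusted p = 0.0783), 851 (0.0558) or 476 (0.0586), or MSMS fetus 401 (0.0611). SCGN, a calcium-binding protein of endocrine cells, C17orf80 and CHRDL2, an antagonist of bone morphogenetic proteins, were higher by 1.47, 1.32 and 1.21. For C17orf80 this was 1 of 3 probes, and the other 2 were lower, down to -0.94, and not called. Each of these 3 calls was lost in several of the sets that left out 1 fetus, with adjusted p-values up to 0.28 for SCGN (without MSLW fetus 688), 0.151 for C17orf80 (without MSMS fetus 627) and 0.124 for CHRDL2 (without MSLW fetus 476). In the fit on the 13 fetuses alone none of the 5 genes of this paragraph was called, with limma adjusted p-values from 0.115 for CHRDL2 to 0.508 for C17orf80.

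**Figure D1:**
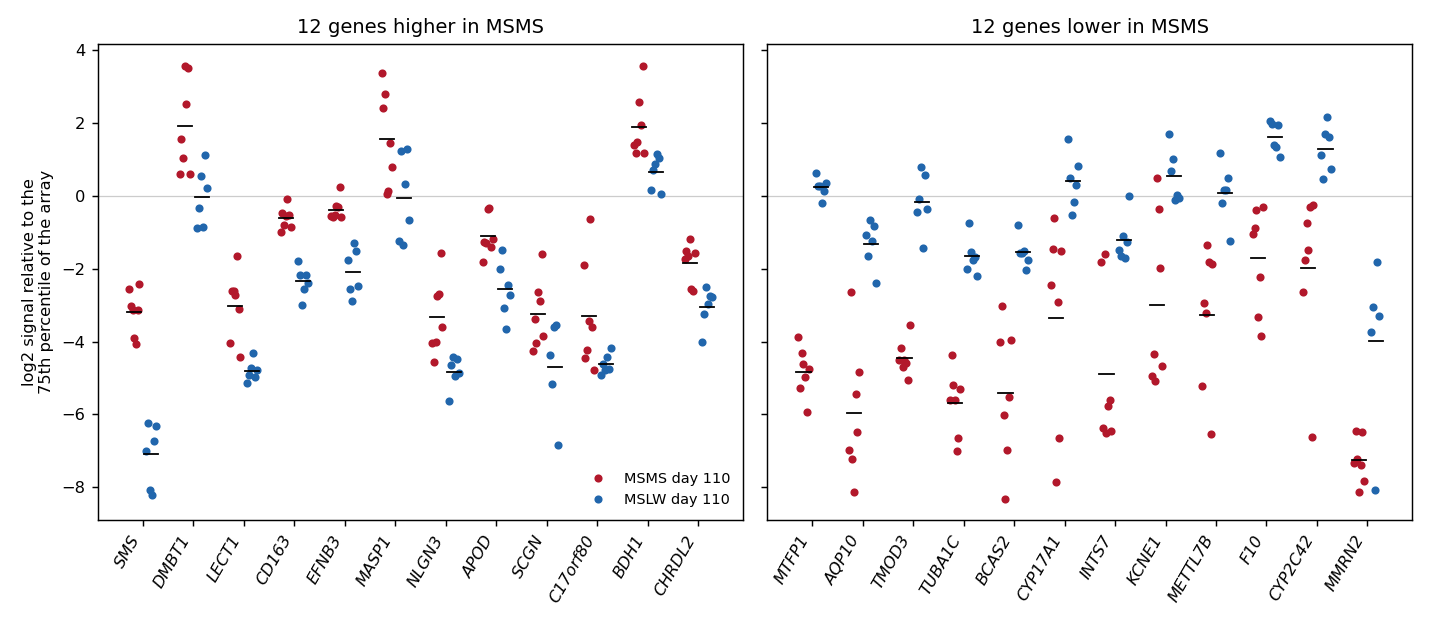
Log2 signal, scaled to each array's 75th percentile, for the 12 named genes highest and the 12 lowest in MSMS fetuses at day 110; each point is 1 fetus (7 MSMS in red, 6 MSLW in blue, 5 where a spot was missing), the black line is the group mean, and levels are not comparable between genes. The CD163 and MTFP1 groups do not overlap, and DMBT1 and MASP1 do.

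The genes lower in MSMS fetuses differed by more. MTFP1, an inner-membrane protein of mitochondrial fission, was -5.94, -4.76 and -3.88 in MSMS and -0.20, 0.27 and 0.64 in MSLW. The groups lay over 3 log2 units apart, the difference was -5.06 ± 0.29 (limma adjusted p = 2.28e-20), and the other MTFP1 probe gave -4.77. AQP10, a water and glycerol channel of the small intestine, was -8.13, -6.49 and -2.63 in MSMS and -2.39, -1.16 and -0.67 in MSLW. Its difference was -4.65 ± 0.66 (limma adjusted p = 2.53e-06), all 3 probes were called (-4.65 to -3.19), and 2 of 7 MSMS arrays were well above background. F10, coagulation factor X, was -3.84, -1.05 and -0.30 in MSMS and 1.06, 1.67 and 2.05 in MSLW, a difference of -3.34 ± 0.54 (limma adjusted p = 3.99e-05) with no overlap by 1 of its 2 probes, while the other gave -1.83 and was not called.

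Several other large differences sat on part of a gene's probes. TMOD3, which caps the slow-growing ends of actin filaments, was -5.06, -4.51 and -3.54 in MSMS and -1.42, -0.22 and 0.78 in MSLW by one probe (-4.28 ± 0.39, limma adjusted p = 1.19e-11; well above background on 5 of 7 MSMS arrays), while the other probe gave -0.56 (adjusted p = 0.032). BCAS2, a subunit of the spliceosome, was lower by 1 of 11 probes (-3.86 ± 0.49, limma adjusted p = 2.47e-07), and the other 10 lay between -0.53 and 0.06 with none called. TUBA1C, an alpha-tubulin, was called by 1 of 3 probes (-4.02, limma adjusted p = 4.85e-07) and INTS7, a subunit of the Integrator complex, by 1 of 2 (-3.68, limma adjusted p = 2.63e-05). Of the 7 MSMS arrays, 3 were well above background for the BCAS2 probe, 2 for TUBA1C and 2 for INTS7. The sequence or transcript form that these probes detect was not examined here. MMRN2, a matrix glycoprotein of blood vessels, was not well above background on any MSMS array by its named probe and was at least 2.46-fold lower there (limma adjusted p = 0.000242), with 3 of 5 probes called. After normexp background correction the difference of MMRN2 was -0.88 (adjusted p = 0.217). In the fit on the 13 fetuses alone neither INTS7 (limma adjusted p = 0.0968) nor MMRN2 (0.158) was called.

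Metabolic and ion-transport genes were also among the 12. CYP17A1, a steroid-synthesis cytochrome P450, was -7.86, -2.45 and -0.60 in MSMS and -0.52, 0.39 and 1.57 in MSLW, so that the MSMS fetuses spread over 7 log2 units just below the MSLW range. The lowest MSMS values, -7.86 in fetus 623 and -6.65 in fetus 632, were not well above background. The CYP17A1 difference was -3.76 ± 0.80 (limma adjusted p = 0.00372) with 3 of 4 probes called, and -3.21 without fetus 632 (adjusted p = 0.0178). METTL7B, a methyltransferase of the endoplasmic reticulum, differed by -3.37 ± 0.49 (limma adjusted p = 6.78e-06) with no overlap. CYP2C42, a xenobiotic-metabolising cytochrome P450, differed by -3.27 ± 0.79 (limma adjusted p = 0.0129), and without fetus 632, whose value was -6.62, by -2.50 (adjusted p = 0.0594). KCNE1, a potassium channel subunit, differed by -3.52 (limma adjusted p = 0.0201) with overlapping groups, and was not called without MSMS fetus 409 (adjusted p = 0.0503) or 401 (0.052). None of these 4 genes was called in the fit on the 13 fetuses alone (limma adjusted p = 0.212 for CYP17A1, 0.0965 for METTL7B, 0.159 for CYP2C42 and 0.148 for KCNE1). With array weights CYP17A1 (-2.37, adjusted p = 0.0582) and CYP2C42 (-2.75, 0.0899) were not called either.

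Probes on the X chromosome were called more often than the 1.9% of all tested probes: 35 of 741 (4.72%), of which 19 were higher and 16 lower. The share on chromosome 16 was close to it, 16 of 340 (4.71%), and over all autosomes it was 2.02%. The X probes stood for 26 genes, 13 higher and 13 lower. The largest difference on the X was in SMS, spermine synthase, which makes the polyamine spermine. One SMS probe was -4.07, -3.12 and -2.42 in MSMS, well above background on 7 of 7 arrays, and -8.21, -6.86 and -6.25 in MSLW, on 0 of 6 arrays. The level in MSMS was at least 3.99-fold higher (limma adjusted p = 2.63e-05), whereas the other, brighter SMS probe differed by 0.21 (adjusted p = 0.848). NLGN3, a neuroligin of synaptic adhesion, was higher by 1.52 ± 0.32 (limma adjusted p = 0.00358) and PRPS2, which makes the precursor of nucleotides, by 1.19 ± 0.15 (adjusted p = 2.47e-07). PRPS2 was 0.40, 0.89 and 1.20 in MSMS and -0.60, -0.48 and 0.15 in MSLW, with no overlap.

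Lower X-linked genes included MOSPD2, a tether between the endoplasmic reticulum and other organelles, which was not well above background on any MSMS array and at least 2.60-fold lower there (limma adjusted p = 0.000432). This was the called 1 of 3 MOSPD2 probes, all of them lower, with the smallest difference at -0.22. FAM199X differed by -2.71 ± 0.36 (limma adjusted p = 6.03e-07), with 1 of 7 MSMS arrays well above background. TMEM27, or collectrin, which escorts amino acid transporters to the brush border, was -4.17, -3.37 and -1.47 in MSMS and -3.34, 0.10 and 0.75 in MSLW (-2.71 ± 0.63, limma adjusted p = 0.00907). In TMEM27 a single MSLW fetus, 851, reached the MSMS range. SMC1A, a cohesin subunit, differed by -1.69 (limma adjusted p = 0.00696) and IQSEC2, an exchange factor for ARF proteins, by -0.95 (adjusted p = 3.99e-06). Of 3 SMC1A probes, 2 were called lower and 1 was higher, at 0.35. IQSEC2 was -1.51, -1.26 and -0.91 in MSMS and -0.71, -0.27 and 0.17 in MSLW, a small and separate shift. In the fit on the 13 fetuses alone FAM199X, TMEM27 and NLGN3 were not called (limma adjusted p = 0.0503, 0.0907 and 0.204), and after normexp background correction MOSPD2 and SMC1A were not (adjusted p = 0.0979 and 0.263).

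Probes to the mitochondrial genome were called at the highest share of any chromosome, 32 of 127 (25.2%), with 18 higher and 14 lower, and the probes of 1 gene often went opposite ways. ND1, a subunit of respiratory complex I, had 4 of 20 probes called, 1 higher and 3 lower. One ND1 probe was 2.48, 4.09 and 4.4 in MSMS and 5.32, 5.65 and 5.95 in MSLW (-2.06 ± 0.32, limma adjusted p = 2.38e-05), while another was 6.63, 6.82 and 7.08 in MSMS and 5.49, 6.05 and 6.17 in MSLW (0.94 ± 0.15, adjusted p = 5.97e-05). Neither set of values overlapped between groups, in opposite directions. CYTB, of complex III, had 8 of 21 probes higher and 2 lower, ND4 had 7 of 11 higher, ND2 had 5 of 12 lower and COX1, of complex IV, 3 of 25 lower. None of the 9 ATP6 or 14 COX3 probes was called. The split depended on scaling: it was 7 higher and 20 lower with the authors' processed values, 6 and 19 after quantile normalization, and 19 and 7 with median centring. All 7 ND4 calls were lost with the authors' values and after quantile normalization. Without fetus 632 the split was 14 higher and 14 lower, with 4 ND4 probes called. No called mitochondrial probe changed its direction in any of 7 settings.

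Some of the strongest lower calls lay on a probe that overlaps an uncalled probe of the same gene, so the sequences of 2 such pairs are shown, with those of the leading ND2 and COX1 probes. Each is the 60-base probe as given in the deposited array files, written 5′ to 3′. A capital marks the base at which overlapping probes of a pair are written differently; the ND2 and COX1 probes have none.
COX2 probe A_72_P746371: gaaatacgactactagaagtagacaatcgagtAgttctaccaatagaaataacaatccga
COX2 probe A_72_P751248: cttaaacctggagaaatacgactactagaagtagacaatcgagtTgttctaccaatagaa
ND1 probe A_72_P745561: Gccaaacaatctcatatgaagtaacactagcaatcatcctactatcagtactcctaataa
ND1 probe A_72_P754234: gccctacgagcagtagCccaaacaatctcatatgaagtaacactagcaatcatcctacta
ND2 probe A_72_P719508: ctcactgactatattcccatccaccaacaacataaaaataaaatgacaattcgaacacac
COX1 probe A_72_P762153: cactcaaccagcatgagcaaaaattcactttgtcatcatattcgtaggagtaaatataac

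The COX2 probes share 48 bases apart from the substitution A33T, with positions counted from 1 at the 5′ end of the first probe. The first was 3.58, 5.44 and 5.72 in MSMS and 5.87, 6.49 and 7.31 in MSLW (-1.51 ± 0.37, limma adjusted p = 0.0136), and the second differed by 0.05 (adjusted p = 0.935). The ND1 probes share 44 bases apart from G1C at the first base, and differed by -2.06 and -0.47 (limma adjusted p = 2.38e-05 and 0.0898). Over 26 pairs of mitochondrial probes with at least 25 overlapping bases, the 14 pairs of identical overlap differed from each other by a median of 0.048 and at most 0.124. The 12 pairs with 1 or 2 differing bases differed by a median of 0.0884, and the 2 pairs shown were the only ones of the 26 above 0.75, at 1.56 and 1.59. In the 8 pairs with a differing base inside the overlap the median was 0.0445, and 1 was above 0.75. The ND1 base is the first of its probe, and the probes of both pairs also differ outside the overlap. Which of these differences goes with the gaps was not tested. The ND2 probe differed by -2.23 ± 0.40 (limma adjusted p = 0.00039) and the COX1 probe by -2.16 ± 0.48 (adjusted p = 0.00593). Whether the MS and LW mitochondrial sequences differ under these probes was not tested.

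**Figure D2:**
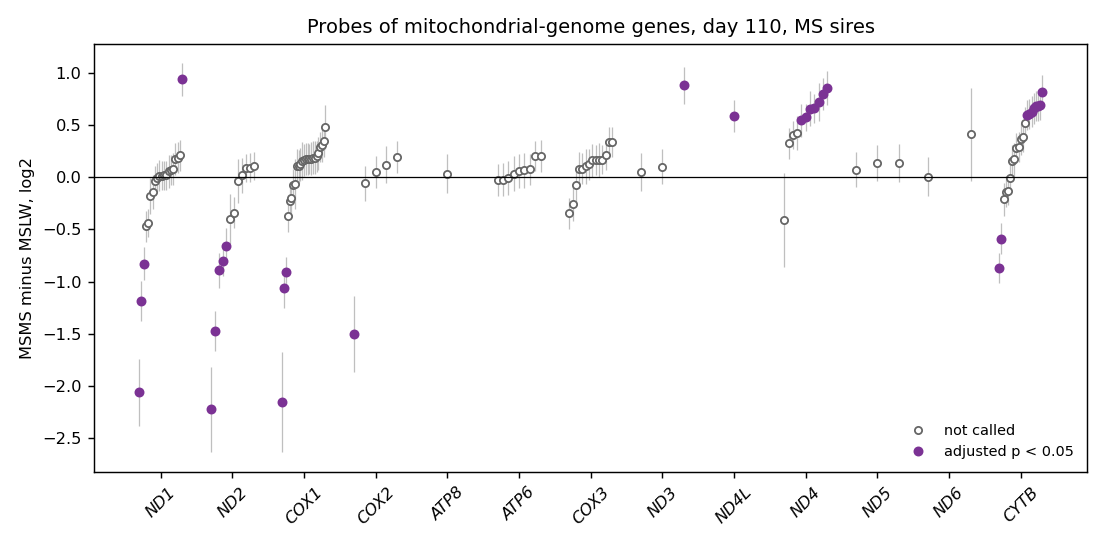
Difference MSMS minus MSLW at day 110 (log2) for each tested probe of the mitochondrial genes, ordered by size within a gene, with its standard error as a vertical line; filled points were called. Probes of ND1, CYTB and other genes lie on both sides of 0, with 18 called above it and 14 below.

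The same sow contrast in other fetuses shows which of these differences were measured again. Neither the day-90 fetuses with MS sires (6 MSMS, 8 MSLW) nor the day-110 fetuses with LW sires (9 LWMS, 9 LWLW) are among the 13, though LWMS and MSMS fetuses can share a litter, as can MSLW and LWLW. At day 90, 1000 probes were called (2.47% of those tested), 0.459% higher and 2.01% lower in MSMS. With LW sires 4279 were called (10.6%), 4.59% higher and 5.97% lower in LWMS. Of the 771 probes, 644 went the same way at day 90, with 213 of them called, which is 27.6% of the 771 and 21.3% of the 1000. With LW sires 654 went the same way and 317 were called, which is 41.1% of the 771 and 7.41% of the 4279, and 6 were called the opposite way. Over all 40515 probes, 22454 and 23637 went the same way as at day 110 with MS sires.

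Mitochondrial calls were called again at a higher share than the 771 as a whole. The shares were 59.4% at day 90 and 93.8% with LW sires, against 27.6% and 41.1%. For calls on the X the shares were 34.3% and 60%. Many mitochondrial probes belong to the same gene and some overlap, so they are not independent. Of the 32 mitochondrial calls, 32 kept their direction in both other contrasts, and 19 were called at day 90 and 30 with LW sires. Of the 35 calls on the X, 26 kept their direction at day 90 (12 called) and 33 with LW sires (21 called). The day-90 share that kept its direction was lower on the X than the 644 of all 771. FAM199X was called lower in both (limma adjusted p = 6.68e-12 at day 90 and 4.3e-14 with LW sires), with 0 of 6 MSMS day-90 arrays and 0 of 9 LWMS arrays well above background, so no size is given. IQSEC2 differed by -0.97 and -0.91 and PRPS2 by 0.93 and 0.95, all called. NLGN3 differed by 1.81 at day 90 and 1.5 with LW sires (limma adjusted p = 0.000112 and 0.00024). SMS was called with LW sires (limma adjusted p = 7.96e-05), where 9 of 9 LWMS arrays and 1 of 9 LWLW arrays were well above background, and not at day 90 (adjusted p = 0.823), where 1 of 6 MSMS and 0 of 8 MSLW arrays were. EFNB3 and APOD differed by 1.28 and 1.42 with LW sires, both called, and by 0.61 and 0.23 at day 90, neither called. CD163 differed by 0.75 with LW sires (limma adjusted p = 0.0371) and 0.19 at day 90 (adjusted p = 0.76) by the probe described above, and by 0.59 (0.081) and 0.04 (0.948) by its brightest probe. VSIG4 differed by 0.19 with LW sires (limma adjusted p = 0.536) and -0.06 at day 90 (adjusted p = 0.913), and BDH1 by 0.39 (0.198) and 0.10 (0.843).

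**Figure D3:**
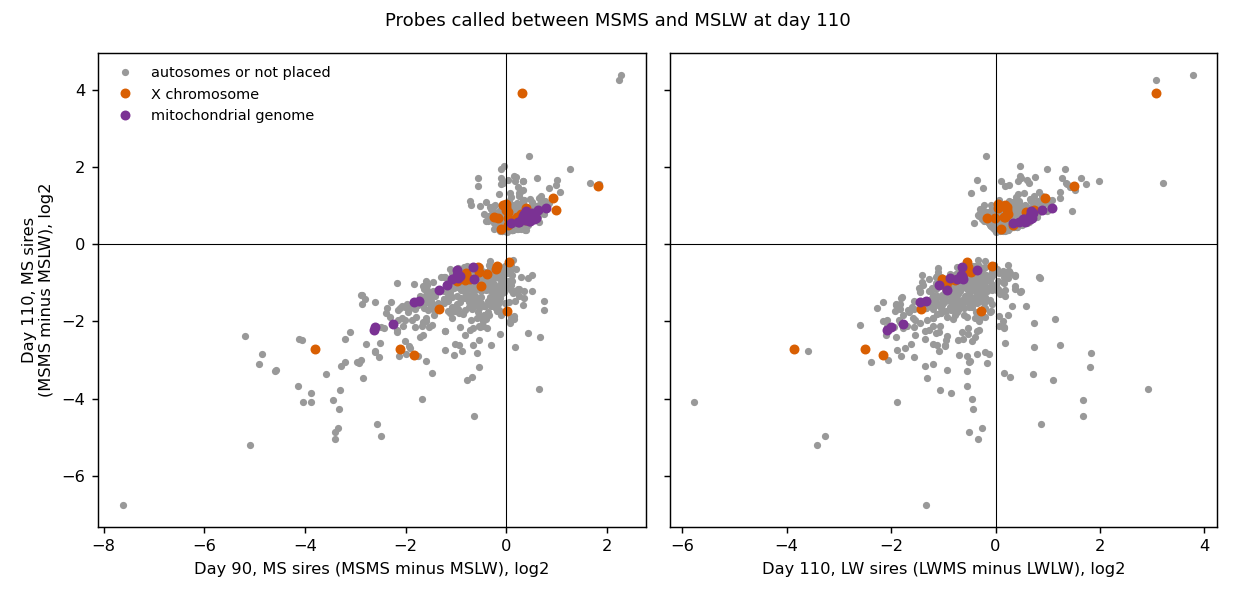
For the 771 called probes, the log2 difference at day 110 with MS sires (vertical axis) against the same sow contrast at day 90 with MS sires (left) and at day 110 with LW sires (right); each point is a probe, orange on the X and purple on the mitochondrial genome. All 32 mitochondrial points lie at lower left or upper right of the crossing lines in both panels.

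A sow difference that depended on sire breed was called for 80 probes (0.197% of those tested, 0.0444% higher and 0.153% lower), and one that depended on age for 25 (0.0617%, 0.0568% higher and 0.00494% lower). For 8 of the 43 named probes, the effect of sow breed differed between MS and LW sires by a test of the difference itself, and 7 of these had their lowest mean in MSMS. All 8 had been picked for a large negative sow difference with MS sires. That difference is a term of the same contrast, so the choice favours both the call and a low MSMS mean. MTFP1 averaged 0.84 ± 0.61 in the LWMS and 1.17 ± 0.50 in the LWLW fetuses (SD, n = 9 each), beside which MSMS alone was low. Its sow difference with LW sires was -0.33 (limma adjusted p = 0.405), and the sow-by-sire difference was -4.73 (adjusted p = 1.29e-13). AQP10, TMOD3, TUBA1C, BCAS2, METTL7B and F10 also had their lowest mean in MSMS, with sow-by-sire differences from -5.53 to -3. CYP17A1 averaged -1.45 ± 1.23 in the LWMS and -4.38 ± 2.25 in the LWLW fetuses (SD, n = 9 each), so the means of both purebred groups lay below those of both crosses and the sow difference with LW sires was 2.92 (limma adjusted p = 0.00358). None of the 43 named probes had a called sow-by-age difference, but other probes of 3 named genes did. CD163 differed by 1.71 at day 110 and -0.56 at day 90 by such a probe, a sow-by-age difference of 2.27 (limma adjusted p = 0.0107). The probes of MAP2K1, a kinase of the MAPK pathway, and IGF1R, the receptor for insulin-like growth factor, had sow-by-age differences of 1.34 each (adjusted p = 0.00872 and 0.0469). Neither was called at day 110, at 0.46 (limma adjusted p = 0.142) and -0.05 (0.952). Both were called lower at day 90, at -0.88 (limma adjusted p = 0.00025) and -1.39 (4.25e-06). Of the 8 genes above, 5 were called lower at day 90 as well: MTFP1 (-3.39), AQP10 (-2.56), TMOD3 (-3.33), BCAS2 (-3.89) and METTL7B (-3.58).

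**Figure D4:**
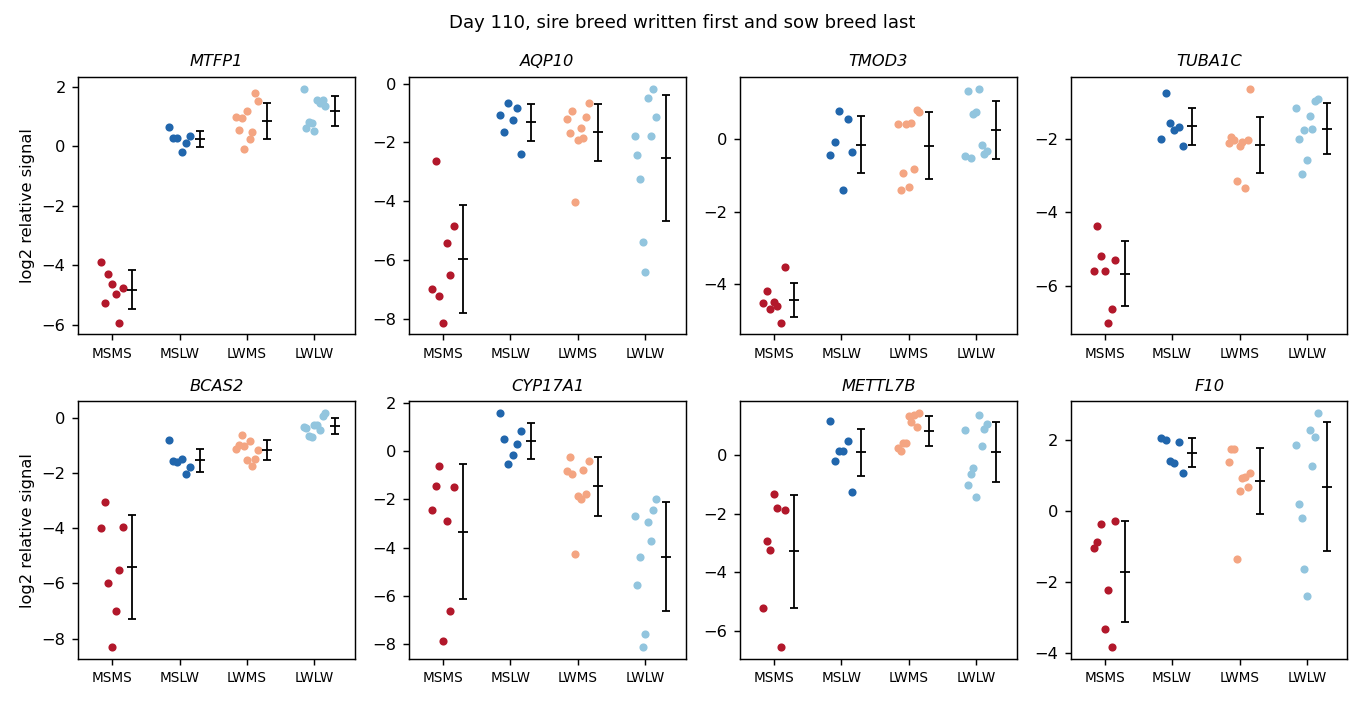
Log2 relative signal of the 8 genes whose sow difference depended on sire breed, in the 4 genotypes at day 110 (7 MSMS, 6 MSLW, 9 LWMS, 9 LWLW); each point is a fetus and the bars give the mean ± SD. The MSMS mean lies below those of the other 3 groups in 7 panels, while CYP17A1 is low in both purebreds. The 8 genes had been picked for a large negative difference MSMS minus MSLW, which favours this pattern.

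Lists of genes for the functions and cells of the fetal jejunum were read by the brightest probe of each gene. Over 26 lists, 11 of 326 listed genes (3.37%) were called, 7 higher and 4 lower, beside 1.9% of all tested probes. None of the 13 tested brush-border digestion genes, 13 lipid uptake genes, 11 sugar transport and gluconeogenesis genes or 19 growth-signalling genes of the IGF and MTOR pathways was called. The brush-border median was -0.63 and the lipid uptake median -0.56, and without fetus 632 they were -0.10 and -0.12. LCT, the lactase of the brush border, differed by -1.25 (limma adjusted p = 0.271). Enterocyte markers averaged 0.31 in fetus 632, 2.95 to 4.36 in the other MSMS fetuses and 3.13 to 4.16 in MSLW.

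Outside the macrophage and mitochondrial-genome lists, no list held more than 1 called gene. FLT1, a receptor for vascular endothelial growth factor, was 0.24, 0.83 and 1.07 in MSMS and -0.95, 0.02 and 0.17 in MSLW (1.01, limma adjusted p = 0.0142), the only called gene of 9 endothelial markers. With slide as a block FLT1 was not called (0.89, limma adjusted p = 0.0533). HK2, the hexokinase that starts glycolysis, was higher by 0.37 (limma adjusted p = 0.0293), 1 of 12 tested glycolysis genes. HK2 was not called with the authors' values (limma adjusted p = 0.0633), normexp (0.118), quantile normalization (0.056) or median centring (0.102). Of 22 tested interferon-stimulated genes, 4 had a positive difference and the list median was -0.45 (-0.31 without fetus 632). The called member was GBP7, an interferon-induced GTPase, at -3.74, -1.47 and -0.99 in MSMS and -0.12, 0.60 and 0.85 in MSLW (-2.25, limma adjusted p = 8.62e-07), by 1 of 4 probes, while OAS1 at -1.61 was not called (adjusted p = 0.149).

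H19, an imprinted RNA expressed from the maternal copy, differed by -2.67 (limma adjusted p = 0.0331), the only called gene of 20 tested imprinted genes. It was not called without fetus 632 (adjusted p = 0.103), with slide as a block (0.0632) or with median centring (0.0612). The lowest H19 values, -6.20 in MSMS fetus 632 and -6.09 in MSMS fetus 623, were not well above background. COX7B, a nuclear-encoded subunit of complex IV, differed by -0.91 (limma adjusted p = 0.0414) and was also not called without fetus 632 (adjusted p = 0.12). Without that fetus OLFM4, a marker of crypt stem cells, was called at 2.16 (limma adjusted p = 0.0248). Lists for the cell cycle, heat shock, antigen presentation, lymphocytes, goblet and endocrine cells, smooth muscle, enteric neurons, fibroblast matrix, erythroid, pancreas and stomach cells held no call.

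**Figure D5:**
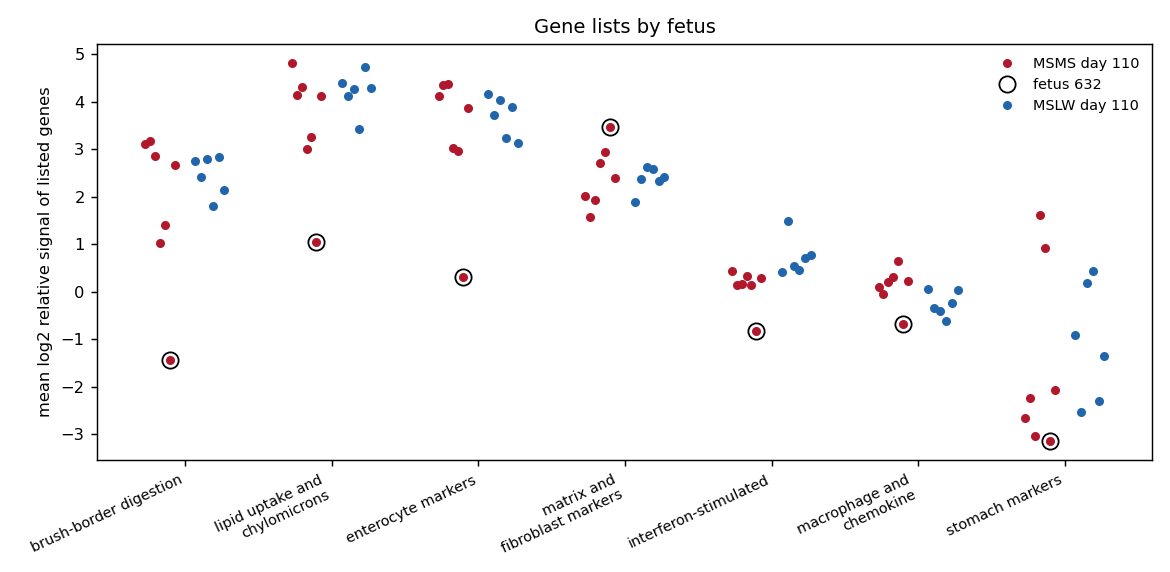
Mean log2 relative signal of the genes of 7 lists in each fetus at day 110 (7 MSMS in red, 6 MSLW in blue); the ring marks MSMS fetus 632. Fetus 632 is lowest in the brush-border and enterocyte lists and highest in the matrix list. The other fetuses of both groups overlap in these 3. MSMS fetuses 623 and 627 lie below all MSLW fetuses in the brush-border and enterocyte lists.

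Of 16 genes that the study singled out for parental origin or for breed at day 110, 15 were tested by their brightest probe and CD163 alone was called (1.66 ± 0.27, limma adjusted p = 5.2e-05). SMS was called higher by 1 of its 2 probes, as given above, while its brightest probe differed by 0.21 and was not called. SRPX2, an X-linked gene, differed by -0.56 (limma adjusted p = 0.202) here, by -0.71 with slide as a block (adjusted p = 0.0429), and by -1.87 at day 90 (adjusted p = 7.82e-09). The 2 SRPX2 probes went opposite ways here (-0.56 and 0.58), and neither was called. NR3C1, the glucocorticoid receptor, differed by -0.38 by its brightest probe (limma adjusted p = 0.221). All 5 of its probes were lower and 2 dimmer ones were called, at -0.87 (adjusted p = 0.0236) and -1.35 (adjusted p = 0.00163). G6PC, the last enzyme of gluconeogenesis, differed by 1.12 (limma adjusted p = 0.348) with MS sires and by 3.30 with LW sires, where it was called. GBP1, an interferon-induced GTPase, differed by -0.70 (limma adjusted p = 0.0795) and by -0.74 with the authors' processed values (adjusted p = 0.0442). All 4 GBP1 probes were lower and 1 dimmer probe was called at -0.85 (adjusted p = 0.0414). PPARGC1A at -0.08, PCK1 at 0.23 and MTOR at -0.09 were not called. The 6 MTOR probes lay between -0.29 and 1.17, and none was called.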

How the data were processed

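RNA of 63 middle jejunum samples was measured on 1-colour arrays. The authors deposited spot intensity per array (Agilent Feature Extraction 10.10.1.1, per the labels) and a log2 table of 39446 processed probes, used as an alternative. From the 60305 probes, the log2 of the processed signal was taken and each array's 75th percentile subtracted, with control spots and outlier flags left out (2775 tested probes lack a value). The 40515 probes tested passed the scanner's background flag on 75% or more of some group's arrays. limma 3.58.1 in R 4.3.3 fitted all 8 groups, as moderated contrasts, after the script was tested on simulated data. The number of arrays limits the precision. Symbols came from the study's probe tables, the reference tables and the array files (22626 tested probes). Named genes were the 12 largest differences each way, the 6 largest on the X, up to 4 called per list, and those the study singled out. Each list gene was taken by its brightest probe. Bounds for genes not well above background used the lowest signal above background on each array. Members and lists were chosen with earlier results of these data known. Alternatives covered background, scaling, filter, slide, weights and left-out fetuses. Results of 2 called genes are not reported here.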

Additional observations from a re-analysis of the deposited data

Results flagged for a closer look

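In 86 combinations of a named probe and a group, 6 held a fetus set far from the others of its group, against about 1 in 20 groups by chance. Fetuses 632 and 851 account for 3 each. MSMS fetus 632 was highest for EFNB3 at 0.238 (next -0.29), lowest for CYP2C42 at -6.62 (next -2.63) and lowest for LDHA, lactate dehydrogenase, at 4.00 (next 5.35). MSLW fetus 851 was highest for INTS7 at 0.0112 (next -1.10), highest for MOSPD2 at -1.61 (next -4.03) and lowest for TMEM27 at -3.34 (next -0.32).

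The sow difference changed with the breed of the sire at day 110 for 8 genes, by limma's test of the difference between contrasts: MTFP1 by -4.73 (adjusted p = 1.29e-13), AQP10 by -5.53 (0.000174), TMOD3 by -3.85 (4.9e-06), TUBA1C by -3.57 (0.00551), BCAS2 by -3 (0.0184), CYP17A1 by -6.68 (0.000211), METTL7B by -4.09 (0.000211) and F10 by -3.51 (0.00791). These 8 had been picked for a large negative sow difference with MS sires, a term of the same contrast, which favours such calls.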

How the results depend on the processing

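No paired analysis was possible because fetus numbers are unique and pair no fetuses between groups. The 771 calls ranged from 553 without a filter on dim probes to 893 without LW fetuses 484 and 469. The exceptions were a fit on the 13 fetuses alone, with 133 calls (22 higher), 2 listed genes, 6 X and 10 mitochondrial probes, and the removal of fetuses 632 and 851 together, chosen after seeing the data, with 489 calls and 5 listed genes. Leaving out 1 fetus gave 458 calls (without MSMS fetus 623) to 911 (without MSMS fetus 407), 7 to 13 listed genes, 24 to 41 probes on the X and 27 to 32 mitochondrial ones. Of the 771 probes, 314 were called in all 13 such sets and 0 changed direction. Centring on the median moved the median difference over all probes from 0.03 to 0.22.

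The sow-by-age count of 25 became 4 with normexp, 9 without a filter, 13 with slide as a block, 41 without the LW fetuses 484 and 469, 1 in the fit on compared groups, 10 on slides holding both groups (added after seeing the data) and 4 without 632 and 851. The sow-by-sire count of 80 became 141 with the authors' values, 39 with median centring, 50 without a filter, 536 with array weights, 125 without the LW fetuses, 47 on slides with both groups and 26 on compared groups. The 1000 calls at day 90 became 622 with normexp, 554 with median centring, 2151 with array weights, 1505 on slides with both groups and 597 on compared groups, and the 4279 with LW sires became 11334 with array weights and 2361 on compared groups. Array weights gave 5 listed genes. The causes were not tested.

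None of the differences that changed sign had been called. CYP11A1 became 0.0289 with the authors' values, 0.0104 with normexp, 0.26 with quantile normalization, 0.13 with median centring and 0.13 with array weights. Median centring gave PPARGC1A 0.11, MTOR 0.11 and CCL2 0.0691, array weights gave LDHA 0.027 and IGF1R -0.20, and IGF1R was -0.0144 without fetuses 632 and 851. Leaving out 1 fetus gave -0.13 to 0.0592 for CYP11A1, -0.27 to 0.0507 for PPARGC1A, -0.34 to 0.019 for LDHA and -0.23 to 0.0366 for CCL2. SMS, CD163, EFNB3, MTFP1, AQP10, TMOD3, TUBA1C, BCAS2 and F10 kept their call in each of the 27 settings run for them. Background limits low probes: a gene dim in 1 group has a bound there and no fold.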

Other observations

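Several genes outside the named set, chosen after their values were seen, had sow differences of opposite sign with the 2 sire breeds at day 110. CD5L, a soluble scavenger protein of macrophages, differed by -2.11 to -1.76 over 6 probes with MS sires (limma adjusted p from 0.115 to 0.174) and by 2.52 to 2.76 with LW sires. The difference between them was -4.82 to -4.46 (limma adjusted p from 0.00265 to 0.0143). ALDH2, the mitochondrial aldehyde dehydrogenase, differed by -0.68 to -0.63 over 5 probes with MS sires and by 0.73 to 0.77 with LW sires. TSKU, a secreted leucine-rich repeat protein, differed by -0.88 and -0.86 over 2 probes with MS sires and by 0.83 and 0.84 with LW sires.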
